A study of Mus musculus with 5464 samples.

Results

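The cells described here are 118 of 5464 single kidney endothelial cells, a share of 2.16% (exact 95% binomial interval 1.79 to 2.58%). They were selected on 7 genes, with the level of a gene taken as its count in a cell divided by the total of that cell and multiplied by 500000. A cell was taken when *Gja5* was at 20 or more, *Slc45a4* or *Gad1* was at 20 or more, fewer than 2 of *Cytl1*, *Gper1* and *Kcnn4* were at 20 or more and *Slc14a1* was under 50. They are called terminal cells below, after the working name terminal afferent arteriole endothelium. That name gives a position in the vessel, which no value in these data measures.

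The afferent arteriole carries blood into the glomerulus, the capillary tuft in which the kidney filters plasma. Its last stretch lies beside the renin-producing cells of the juxtaglomerular apparatus, and connexin 40, the gap junction protein encoded by *Gja5*, couples arteriolar endothelium to these cells and is needed for the control of renin by pressure. *Gad1* encodes an enzyme that makes GABA from glutamate, and *Slc45a4* encodes a solute carrier.

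The cells came from kidneys, with the papilla removed, of female BTBRLean mice (heterozygous or wild-type littermates) and of leptin-deficient BTBRob/ob mice, which become obese and diabetic. CD31-positive, Calcein AM-positive cells were sorted 1 per well and sequenced with SmartSeq2, a full-length cDNA method without molecular identifiers. Mice of both genotypes were aged 6, 11 or 20 weeks, which gave 6 groups. Labels name plates but no animals, so each genotype and age was 1 sample, cells were not taken as replicates, and p-values measure the spread between these 6 samples, which may be technical. Each of the 22 plates held cells of 1 group, with 2 to 5 plates per group. Spread between the plates of a group can be seen, but the effect of a group cannot be told apart from that of its own plates. Counts per cell ran from 52214 to 1127088 in terminal cells, with a median of 313954, against medians of 353334 in arterial cells and 290485 in all other cells. Genes detected per cell after thinning every cell to 50000 counts had medians of 2673.5 in terminal, 2842 in arterial and 2474 in other cells.

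Terminal cells were compared with 4 populations. Arterial cells, with at least 2 of *Cytl1*, *Gper1* and *Kcnn4* at 20 or more, numbered 107. Other cells were the 5239 that were neither terminal nor arterial. Among these, 685 glomerular cells had both *Ehd3* and *Gata5* at 20 or more, and 409 other *Gja5* cells met every part of the gate but the one on *Slc45a4* and *Gad1*. The glomerular and other *Gja5* cells overlap, and all 4 comparisons share the terminal cells.

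Within the gate, 64 cells had *Slc45a4* alone, 27 had *Gad1* alone and 27 had both. The values that chose the cells are a description only. The median *Gja5* level was 783 in terminal cells, 599 in arterial cells, 62.9 in other *Gja5* cells and 1.17 in other cells. The lowest *Gja5* level inside the gate was 28.2 and the highest of a cell kept out by it alone was 18.2, and the same values for the higher of *Slc45a4* and *Gad1* were 27.1 and 18.96. Of the terminal cells, 94 had none of the 3 arterial gate genes and 24 had 1. *Slc45a4* was not particular to the gate, since 32 of the 107 arterial cells also had it, and 29 cells with *Gja5* and *Slc45a4* or *Gad1* had *Slc14a1*, a gene of the descending vasa recta, at 50 or more. In the mouse genome GRCm38 (GENCODE vM21) the protein-coding genes *Gja5*, *Slc45a4* and *Gad1* lie at chr3:96904693-97077416, chr15:73577424-73645762 and chr2:70553072-70602014.

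Terminal cells held transcripts of endothelial genes, after a sort on CD31, the protein that *Pecam1* encodes. *Pecam1* was at 20 or more in 100.0% of them, *Egfl7* in 99.2% and *Cdh5*, VE-cadherin, in 94.1%. Of 8 pan-endothelial genes, 2 were higher and 2 (*Emcn* and *Tek*) lower than in other cells, beside 0.995% and 6.48% over all genes. Against arterial cells 2 were higher and 2 (*Pecam1* and *Tek*) lower, beside 0.421% and 0.273% over all genes. Several transcripts that define neighbouring cell types were at or near 0, while the summed levels of their gene lists were not. Summed over all 118 cells, *Ren1*, renin, had 5 counts, *Myh11*, smooth muscle myosin, had 9, *Pdgfrb* of pericytes and mesangial cells had 5, and the podocyte gene *Nphs1* had 2. The tubule genes *Lrp2* and *Cubn* had 26 and 12 counts and the leukocyte gene *Ptprc* had 6. *Lrp2* was among the genes by which the authors had removed epithelial cells. Over the 6 groups the summed podocyte list was at 169 to 537 in terminal, 511 to 888 in arterial and 306 to 407 in other cells. The summed tubule list was at 3.4 to 124, 6.33 to 108 and 5.51 to 53 in the same order. The summed level of the list of mural, juxtaglomerular and mesangial genes ran from 37.6 to 308 over the 6 groups of terminal cells. It ran from 77.3 to 388 in arterial and from 7.2 to 17.5 in glomerular cells. *Acta2* made up much of the sum in terminal cells, but not most of it in every group. Glomerular transcripts were present in part of the gate. Both *Ehd3* and *Gata5* were at 20 or more in 21 of the 118 cells, 7 each from BTBRLean at 11 weeks and BTBRob/ob at 6 weeks and 1 to 3 from each other group. Counts of genes are given below with and without these 21 cells. The fits without them also left out arterial, other and other *Gja5* cells with both genes, so other cells lost the 685 glomerular cells. Glomerular cells were kept whole in their own comparison. The part of each population in a lost call was not tested.

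The comparison with arterial cells asks what sets *Gja5* cells with *Slc45a4* or *Gad1* apart from cells with the arterial gate genes. Terminal cells had higher levels of the VEGF receptor *Kdr*, its co-receptor *Nrp1* and the sialomucin *Emcn*, and of *Alox12*, *Esm1*, *Igfbp3* and *Ctgf*, which were lower in both arterial and glomerular cells. They had lower levels of *Eln*, *Fbln2*, *Mgp*, *Clu*, *Tgm2* and *Zyx*. With edgeR, group as a block and Benjamini-Hochberg adjustment, 57 of 13538 genes were higher in terminal cells (0.421%) and 37 were lower (0.273%). Without the 21 cells that held both glomerular genes, 26 were higher and 16 lower, all of them among the 57 and 37.

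**Figure D1:**
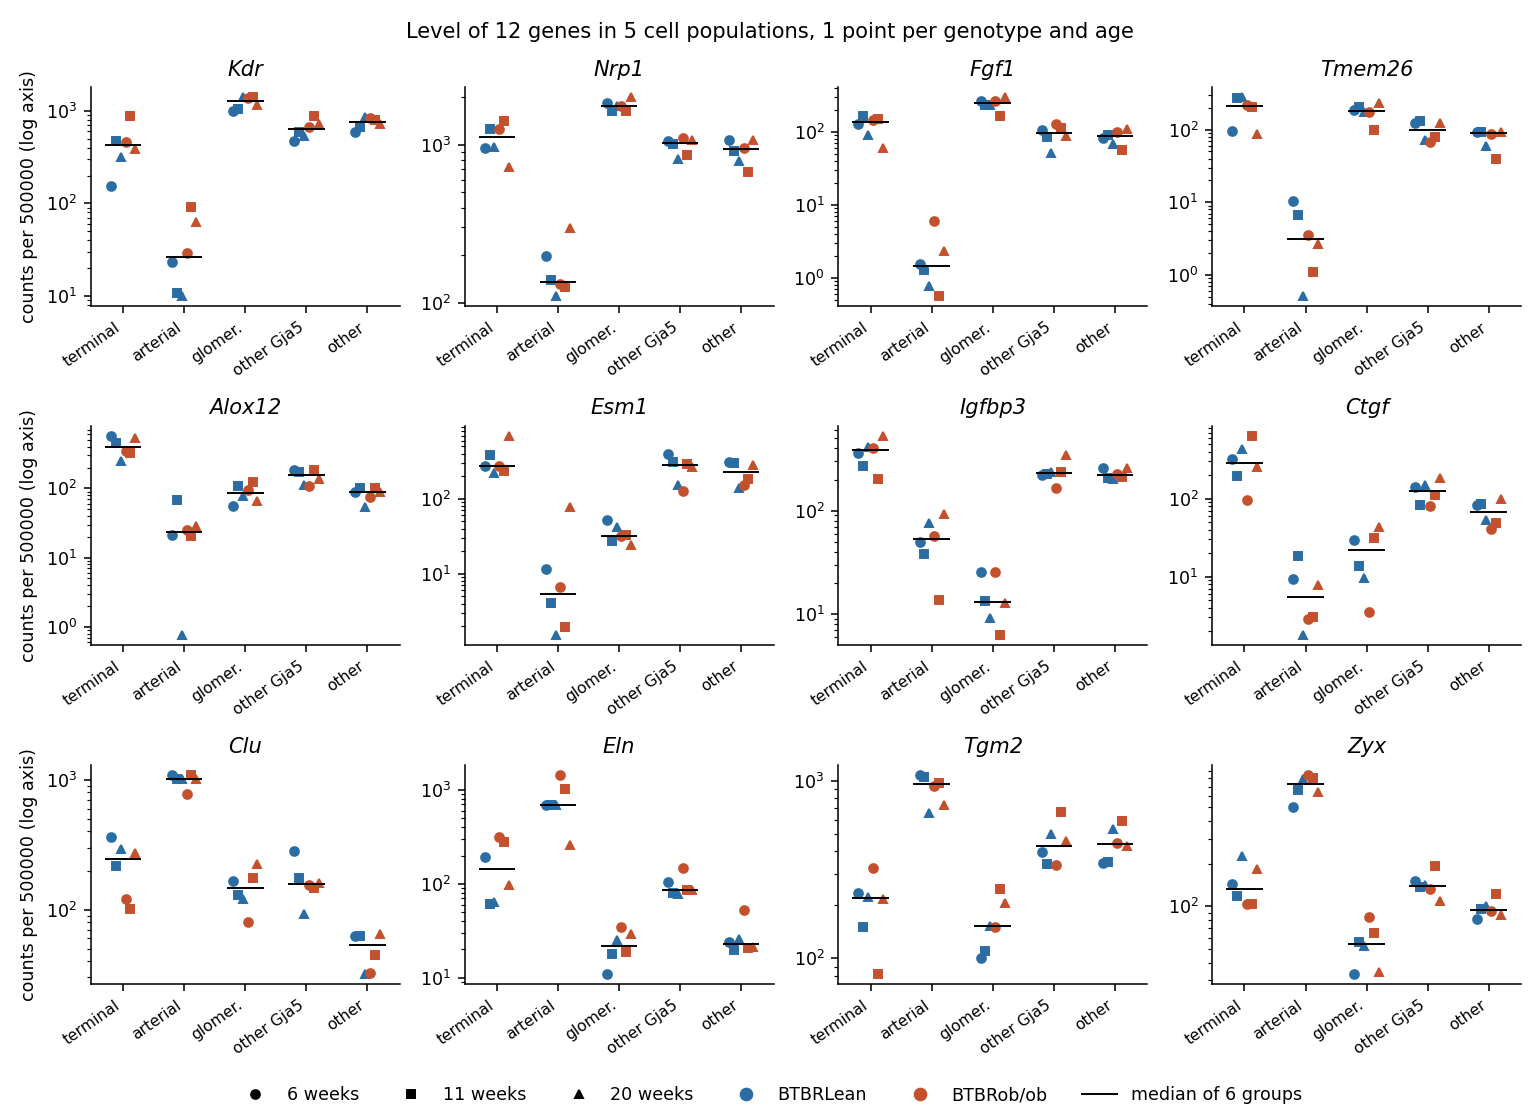
Level of 12 genes (counts per 500000, log axis) in 5 populations of cells, with 1 point for each genotype and age and a line at the median of the 6. For the first 8 genes the 6 terminal points lie above all 6 arterial points, and for *Clu*, *Tgm2* and *Zyx* they lie below them. For *Eln* the terminal and arterial points overlap, although the terminal level is the lower in each of the 6 groups.

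Levels below are counts per 500000 over the summed cells of a group, and 3 values for a genotype stand for 6, 11 and 20 weeks in that order. *Kdr*, the main VEGF receptor of endothelium, was at 154, 475 and 319 in BTBRLean and 463, 876 and 388 in BTBRob/ob in terminal cells. In arterial cells it was at 23.2, 10.7, 9.88, 28.9, 90.6 and 62.7 in the same order. Groups did not overlap, and terminal cells had a log2 difference of 3.80 ± 0.42 (SE, edgeR, adjusted p = 0.00449). *Kdr* was higher still in glomerular cells, at 1009 to 1406, and terminal against glomerular cells had a log2 difference of -1.55 ± 0.23 (SE, edgeR, adjusted p = 0.00858). *Nrp1* had the same order, with 726 to 1405 in terminal, 109.9 to 296 in arterial and 1626 to 1996 in glomerular cells, a log2 difference of 2.75 ± 0.26 (SE, edgeR, adjusted p = 0.00373) against arterial cells. *Emcn* was at 410.3 to 909, 20.3 to 142 and 1245 to 1549.5 in the same 3 populations and *Plat*, tissue plasminogen activator, at 881 to 2729, 76.2 to 577 and 2434 to 3509. All 4 genes were higher in terminal than in arterial cells and lower in terminal than in glomerular cells (edgeR, adjusted p against arterial cells 0.0101 for *Emcn* and 0.0175 for *Plat*, against glomerular cells 0.0411 for *Nrp1*, 0.00244 for *Emcn* and 0.0108 for *Plat*). The call for *Plat* against arterial cells was lost without BTBRLean at 6 or 11 weeks or BTBRob/ob at 6 or 11 weeks, and that for *Emcn* without BTBRLean at 11 weeks.

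*Fgf1*, a growth factor without a secretion signal, was at 129, 168 and 89.5 in BTBRLean and 147, 153 and 59.7 in BTBRob/ob in terminal cells and at 0.556 to 6.1 in arterial cells, a log2 difference of 6.16 ± 0.68 (SE, edgeR, adjusted p = 0.00449). Its levels of 167 to 299 in glomerular cells overlapped those of terminal cells, and the difference did not pass the test (log2 difference -0.94 ± 0.26 SE, edgeR adjusted p = 0.106). *Tmem26*, a transmembrane protein gene, was at 86.5 to 279 in terminal, 0.507 to 10.5 in arterial and 98.9 to 233 in glomerular cells, a log2 difference of 5.82 ± 0.75 (SE, edgeR, adjusted p = 0.00921) against arterial cells. *Mapt*, the microtubule protein tau, *Pcp4l1* and *Ddit4l*, a stress-induced inhibitor of mTOR signalling, followed with differences from arterial cells of 6.49, 5.21 and 5.54 on the log2 scale, and all 3 were at higher summed levels in glomerular cells (105, 169 and 119) than in terminal cells (61.7, 98.8 and 42.8). *Gata5*, a transcription factor of glomerular endothelium, differed by 5.81 with all terminal cells and by 2.01 (adjusted p = 0.882) without the 21 cells, which were set apart by this gene.

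Other genes were higher in terminal cells than in arterial and in glomerular cells. *Alox12*, a lipoxygenase of arachidonic acid, was at 569.6, 447 and 248 in BTBRLean and 351, 319 and 539.5 in BTBRob/ob. It was at 0.76 to 69 in arterial and 56.1 to 123 in glomerular cells, with no overlap of terminal groups with either, a log2 difference of 4.36 ± 0.60 (SE, edgeR, adjusted p = 0.0101) against arterial and a log2 difference of 2.32 ± 0.28 (SE, edgeR, adjusted p = 0.00283) against glomerular cells. *Esm1*, a secreted proteoglycan that binds growth factors, was at 219.7 to 689 in terminal, 1.52 to 78.9 in arterial and 24.4 to 52.2 in glomerular cells, a log2 difference of 5.56 ± 0.58 (SE, edgeR, adjusted p = 0.00425) against arterial cells. Against other cells, where *Esm1* was at 140.3 to 312, terminal cells had a log2 difference of 0.72 ± 0.18 (SE, edgeR, adjusted p = 0.0348). This call was lost with cells holding both glomerular genes left out of both populations (log2 difference 0.51, edgeR, adjusted p = 0.0875). *Igfbp3*, which binds insulin-like growth factors, was at 364, 271 and 412 in BTBRLean and 404, 203 and 527 in BTBRob/ob, against 13.6 to 93.6 in arterial and 6.25 to 25.6 in glomerular cells. Its log2 difference from arterial cells was 2.86 ± 0.25 (SE, edgeR, adjusted p = 0.00278). Within kidney endothelium the paper places *Igfbp3* in the descending vasa recta. With cells holding both glomerular genes left out, it was above other cells by a log2 difference of only 0.69 (edgeR, adjusted p = 0.034). The call against other cells was not kept under every alternative. *Ctgf*, a matrix-associated target of the YAP pathway, was at 94.9 to 633 in terminal, 1.77 to 18.2 in arterial and 3.5 to 43.6 in glomerular cells. Its log2 difference from arterial cells was 5.58 ± 0.63 (SE, edgeR, adjusted p = 0.00498).

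*Msr1*, the macrophage scavenger receptor, had the largest change among genes higher than in arterial cells. It was at 21.6, 11.1 and 70.1 in BTBRLean and 127, 111 and 57.6 in BTBRob/ob in terminal cells and at 0, 0.05, 0, 0.406, 0.278 and 0.406 in the same order in arterial cells, where 13 counts were found in all, a log2 difference of 8.50 ± 1.04 (SE, edgeR, adjusted p = 0.00681). *Msr1* was at 20 or more in 22% of terminal, 0% of arterial and 1.53% of other cells. It was at 1.08 to 18.2 in glomerular cells, from which terminal cells had a log2 difference of 2.42 ± 0.81 (SE, edgeR, adjusted p = 0.169). The summed level of 7 immune cell genes was 0.29 to 12.5 over the groups of terminal cells, 0 to 8.49 in arterial and 4.13 to 10.8 in other cells. Of these genes *Csf1r*, the receptor of a macrophage growth factor, was the only 1 tested against arterial cells and was at 0.0966 to 12.4 in terminal cells (log2 difference 1.70 ± 2.15 SE, edgeR adjusted p = 0.954), while *Cd68*, *Lyz2* and *Ptprc* were at 0.0253, 0.203 and 0.076 over all terminal cells. The part of immune cell RNA in the *Msr1* level was not tested. *Fam65b*, *Serpina3g*, a serine protease inhibitor, and *Tbx3os1*, a transcript antisense to the transcription factor gene *Tbx3*, completed the 12 with differences of 7.69, 7.73 and 6.14. The setting for strand is not stated, so reads of *Tbx3os1* and *Tbx3* cannot be told apart, and *Tbx3* itself did not pass (log2 difference 4.62 ± 1.17 SE, edgeR adjusted p = 0.167). Without the 21 cells, 7 of the 12 kept the call, and those that lost it were *Fam65b*, *Serpina3g*, *Gata5*, *Tbx3os1* and *Ddit4l* (adjusted p from 0.0723 to 0.882).

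**Figure D2:**
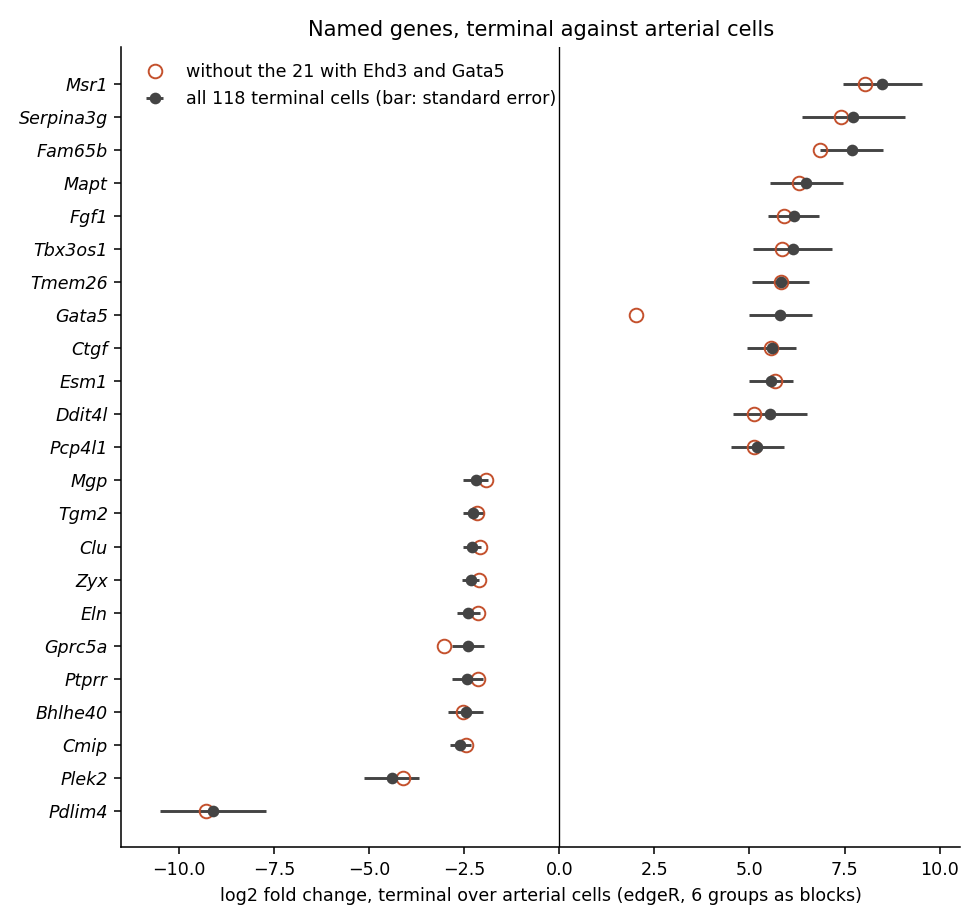
Log2 fold change of terminal over arterial cells for 23 of the 24 named genes (*Scara3*, with 2 counts in terminal cells, is left out), with standard errors, for all 118 terminal cells (filled) and without the 21 that held *Ehd3* and *Gata5* (open). Open points have the sign of the filled ones, and *Gata5* moves most, from 5.81 to 2.01.

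Of 24 genes of basement membrane and elastic matrix, 0 were higher and 4 (*Eln*, *Mgp*, *Fbln2* and *Ltbp4*) were lower than in arterial cells. Over all genes 0.421% were higher and 0.273% lower. The median log2 difference of the list was -0.75 against 0.11 over all genes. *Eln*, tropoelastin, was at 193, 61.1 and 63.2 in BTBRLean and 315, 276 and 97 in BTBRob/ob in terminal and at 696, 697, 687, 1450.1, 1015 and 256 in the same order in arterial cells, lower in each of the 6 groups, a log2 difference of -2.40 ± 0.30 (SE, edgeR, adjusted p = 0.00838). *Clu*, the extracellular chaperone clusterin, was at 101 to 361 in terminal and 779 to 1093 in arterial cells, a log2 difference of -2.29 ± 0.24 (SE, edgeR, adjusted p = 0.00425). *Tgm2*, which crosslinks matrix proteins, was at 81.7 to 322 and 658 to 1078, a log2 difference of -2.26 ± 0.27 (SE, edgeR, adjusted p = 0.00681), and *Zyx*, the focal adhesion protein zyxin, at 104 to 227 and 503 to 849, a log2 difference of -2.34 ± 0.23 (SE, edgeR, adjusted p = 0.00402). *Mgp*, an inhibitor of calcification, was lower by a log2 difference of -2.21 and *Cmip* of -2.60. *Bhlhe40*, a transcriptional repressor, *Ptprr*, a phosphatase of MAP kinases, *Gprc5a* and *Plek2* had differences of -2.46, -2.42, -2.41 and -4.41. Without the 21 cells 8 of the 12 lower genes kept the call, and *Bhlhe40*, *Ptprr*, *Gprc5a* and *Plek2* lost it (edgeR, adjusted p = 0.0518, 0.0548, 0.509 and 0.0518). The largest differences were of genes that were close to absent from terminal cells. *Pdlim4*, an actin-binding protein, had 33 counts in terminal and 4737 in arterial cells, and *Scara3* had 2 and 3098.

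Of the genes named here or drawn from the lists below, 11 kept their call under every alternative, with higher levels for *Ehd3*, *Fgf1*, *Tmem26*, *Esm1*, *Alox12*, *Igfbp3*, *Kdr* and *Nrp1* and lower levels for *Cmip*, *Tgm2* and *Zyx*. The number of genes called was less stable. Leaving out 1 group at a time gave 19 to 40 genes higher and 9 to 35 lower, with the lowest numbers without BTBRLean at 11 weeks. Of the 12 named genes in each direction, 6 higher and 5 lower kept the call whichever group was left out. Without the block, 98 genes were higher and 64 lower. Arterial cells of BTBRLean at 20 weeks and of BTBRob/ob at 11 weeks numbered 5 and 6, against at least 11 terminal cells in every group.

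Arterial identity was described with a list of 24 genes, of which 1 was higher and 6 were lower in terminal than in arterial cells, with a median log2 difference of -1.01 against 0.11 over all genes tested. The same list had 21 genes higher and 0 lower against other cells (median 2.28, all genes -0.96) and 19 higher and 0 lower against glomerular cells (median 2.67, all genes -0.53). Over all genes, 0.421% were higher and 0.273% lower against arterial cells. The shares were 0.995% and 6.48% against other cells and 0.878% and 1.23% against glomerular cells. The summed level of the list was 5193 to 9365 over the 6 groups of terminal cells, 10903 to 14158 in arterial, 1687 to 1899 in glomerular and 1647 to 2125 in other cells. None of the 3 genes that chose the arterial cells is in this list. Cells were nevertheless chosen on these genes and on *Gja5*, which the paper lists among markers of arteries and afferent arterioles. Genes expressed together with them can differ through the choice of cells alone. The list is therefore a description and no independent support for the name.

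*Vwf*, von Willebrand factor, *Cldn5*, the tight junction protein claudin 5, *Eln*, *Mgp*, *Ltbp4* and *Fbln2* were lower than in arterial cells. *Vwf* was at 35 to 172 in terminal, 261 to 656 in arterial and 0.229 to 1.24 in glomerular cells, a log2 difference of -2.04 ± 0.35 (SE, edgeR, adjusted p = 0.0305) against arterial and a log2 difference of 7.75 ± 0.44 (SE, edgeR, adjusted p = 4.11e-05) against glomerular cells. *Fbln2* had differences of -1.89 and 6.39 from the same populations and *Cldn5* of -1.84 and 2.56. Of the Notch pathway 1 of 18 tested genes was higher and 0 lower, and of the gap junction list 0 of 4 passed, beside 0.421% higher and 0.273% lower over all genes. *Dll4*, the Notch ligand of arterial and sprouting endothelium, was at 684, 797 and 585 in BTBRLean and 536, 787 and 735 in BTBRob/ob in terminal cells, above the arterial level in each group, a log2 difference of 0.69 ± 0.12 (SE, edgeR, adjusted p = 0.0362), although this call was lost under 13 of the alternatives. *Vwf*, *Ltbp4* and *Dll4* lost the call against arterial cells without the 21 cells (edgeR, adjusted p = 0.0518, 0.0903 and 0.0518). *Gja4*, connexin 37, which shares junctions with connexin 40, was at 709 to 907 in terminal and 781 to 1565 in arterial cells, a log2 difference of -0.35 ± 0.17 (SE, edgeR, adjusted p = 0.64) from arterial and a log2 difference of 2.28 ± 0.10 (SE, edgeR, adjusted p = 8.47e-06) from other cells. *Sox17*, *Notch1*, *Notch4* and *Hey1* had differences from arterial cells of 0.34, 0.45, 0.43 and 0.61, none past the test (edgeR, adjusted p from 0.262 to 0.823).

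**Figure D3:**
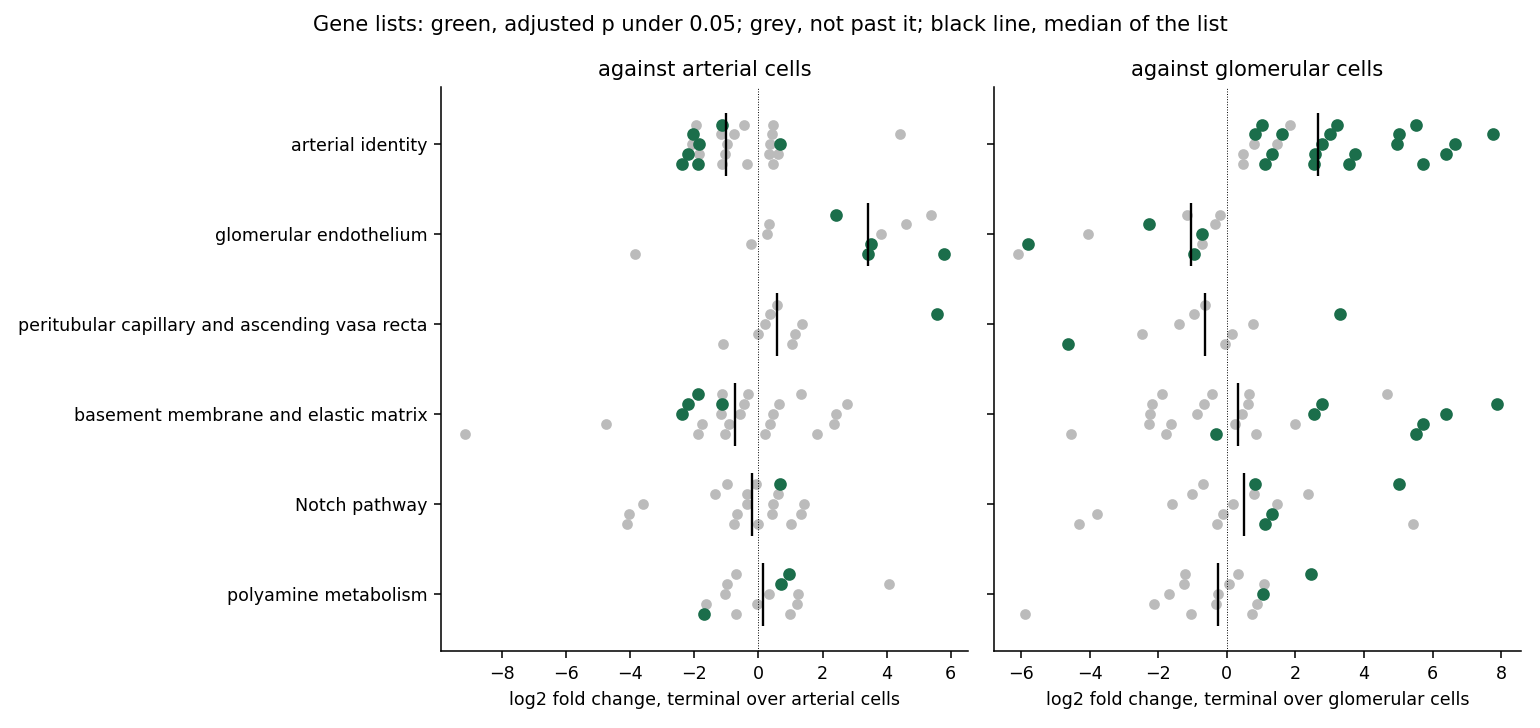
Log2 fold change of the tested members of 6 gene lists in terminal cells against arterial cells (left) and glomerular cells (right), with members past adjusted p of 0.05 in green, others in grey and the median of each list as a black line. The median of arterial identity lies at -1.01 on the left and 2.67 on the right, and that of glomerular endothelium at 3.43 and -1.05.

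Of 11 tested genes of glomerular endothelium, 4 (*Gata5*, *Ehd3*, *Emcn* and *Plat*) were higher and 0 lower against arterial cells. Over all genes 0.421% were higher and 0.273% lower. The median of the list was 3.43, against 0.11 over all genes. Against glomerular cells, which were selected on *Ehd3* and *Gata5*, 0 of the other 10 were higher and 4 were lower. Over all genes 0.878% were higher and 1.23% lower. The median of the list was -1.05, against -0.53 over all genes. The summed level was 2560.1 to 6478 in terminal, 1094 to 1576 in arterial and 7968 to 10039 in glomerular cells. *Pi16*, a peptidase inhibitor gene, was at 727 to 1153 in terminal and 1008 to 1228 in glomerular cells, a log2 difference of -0.20 ± 0.07 (SE, edgeR, adjusted p = 0.179), and *Tbx3* at 53.9 to 213 and 141 to 272, a log2 difference of -0.36 ± 0.32 (SE, edgeR, adjusted p = 0.655). *Sost*, an inhibitor of Wnt signalling, was at 0.201 to 12.5 in terminal and 37.2 to 224 in glomerular cells, a log2 difference of -5.81 ± 0.66 (SE, edgeR, adjusted p = 0.00206). *Kcnj5* and *Lpl* were at 2.13 and 2.23 over all terminal cells and 14.9 and 22.2 over all glomerular cells.

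Compared directly with glomerular cells, terminal cells had 138 of 15712 genes higher (0.878%) and 194 lower (1.23%), and 133 and 102 of these reached a level of 20 in the higher population. Without the 21 cells the numbers were 154 and 283. *Fn1*, fibronectin, was at 99.2, 123 and 326 in BTBRLean and 339, 109.6 and 228 in BTBRob/ob in terminal cells and at 0.229 to 2.53 in glomerular cells, a log2 difference of 7.88 ± 0.55 (SE, edgeR, adjusted p = 9.77e-05). *Vegfc*, a growth factor known for lymphatic vessels, was at 34.1 to 208 and 0.104 to 0.638, a log2 difference of 8.31 ± 0.58 (SE, edgeR, adjusted p = 9.77e-05). The other genes with the largest differences were *Adh7*, *Col8a1*, *Fmo2*, *Fads2*, *Ptprj* and *Vwf*, from 7.07 to 9.73 on the log2 scale. *Adh7*, an alcohol dehydrogenase acting on retinol, *Col8a1*, a collagen of vessel walls, and *Fmo2* were each at 20 or more in 9.32 to 11% of terminal cells, and 1 cell gave 23.9, 25 and 25.1% of their counts. *Vim*, vimentin, was at 470.3 to 742 in terminal and 19.1 to 51.2 in glomerular cells, a log2 difference of 4.40 ± 0.14 (SE, edgeR, adjusted p = 5.88e-07). Genes close to absent from terminal cells and present in glomerular cells were *Lect1*, *Gypc*, *Tgfbi*, *Sapcd1*, *Dapk1*, *Nos2*, *Sost* and *Nkd1*, at 0.127 to 3.65 over all terminal cells against 20.8 to 109 over all glomerular cells. *Tgfbi* encodes a matrix protein induced by TGF-beta, *Nos2* the inducible nitric oxide synthase and *Nkd1* an inhibitor of Wnt signalling. The call for *Sapcd1* was lost without the 21 cells (edgeR, adjusted p = 0.0544).

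Against all other cells, 215 of 21598 genes were higher (0.995%) and 1400 lower (6.48%). With cells holding both glomerular genes left out of both populations, 178 were higher and 1658 lower. Sums over 11 to 29 terminal cells per group stand against sums over far more other cells, and 1248 of the 1400 were under a level of 20 in both populations, while of genes at 20 or more 207 were higher and 152 lower. *Hey2*, a target of Notch signalling, was at 44.6, 80.6 and 63.8 in BTBRLean and 29.1, 98.6 and 74.6 in BTBRob/ob in terminal and 1.33 to 4.46 in other cells, a log2 difference of 4.97 ± 0.51 (SE, edgeR, adjusted p = 0.000701). *Ace*, the angiotensin-converting enzyme, was at 61.5, 58.9 and 60.1 in BTBRLean and 88.1, 70.4 and 98.6 in BTBRob/ob in terminal, 99.5 to 297 in arterial and 2.63 to 5.36 in other cells, a log2 difference of 4.33 ± 0.39 (SE, edgeR, adjusted p = 0.000274). *Pde3a*, a phosphodiesterase of cyclic nucleotides, and *Syt15*, a synaptotagmin, differed from other cells by 4.40 and 4.51, *Fn1* by 4.57 and *Bmp4* by 3.78. *Acta2*, smooth muscle actin, was at 16.3 to 293 in terminal and 6.5 to 8.79 in other cells, a log2 difference of 3.87 ± 0.52 (SE, edgeR, adjusted p = 0.00452), while *Tagln* and *Myh11* were at 7.59 and 0.114 over all terminal cells. *Col8a1*, *Adh7*, *Fads2*, a fatty acid desaturase, *Mical2* and *Msr1* had differences from 3.65 to 4.78. *Col8a1* lost its call with cells holding both glomerular genes left out of both populations (edgeR, adjusted p = 0.0788).

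Of 9 genes of peritubular capillaries and ascending vasa recta, 7 were lower and 1 higher than in other cells (median -4.37, all genes -0.96). Over all genes 6.48% were lower and 0.995% higher. *Plvap*, which forms the diaphragms of fenestrae, was at 166, 297 and 166 in BTBRLean and 228, 299.9 and 439 in BTBRob/ob in terminal and 1437 to 2357 in other cells, a log2 difference of -2.59 ± 0.18 (SE, edgeR, adjusted p = 4.07e-05). It was also lower than in other *Gja5* cells (log2 difference -2.12 ± 0.19 SE, edgeR adjusted p = 0.00771). *Il33*, *Car8* and *Igfbp5* had differences from other cells of -5.71, -5.50 and -4.37. *Apln*, a ligand of sprouting endothelium, its receptor gene *Aplnr*, *Rgs16*, *Tmem119* and *Robo3* differed by -6.05, -5.21, -5.62, -5.51 and -5.47, and each was at 0.431 to 3.76 over all terminal cells. Of 6 genes of the efferent arteriole 0 were higher and 4 lower (median -2.45, all genes -0.96), beside 0.995% and 6.48% over all genes. *Calca* was at 2.19 in terminal and 36.3 in other cells. Its call was kept under every alternative, while those of *Aif1l*, *Npnt* and *Slc6a6* were not.

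The comparison with other *Gja5* cells asks which genes go with *Slc45a4* or *Gad1* once *Gja5* is present, although the median of *Gja5* itself was lower in the other *Gja5* cells. Of 14949 genes, 18 were higher (0.12%) and 13 lower (0.087%). With cells holding both glomerular genes left out of both populations, 16 were higher and 14 lower. At gate thresholds of 40 in place of 20 none passed (0 at adjusted p under 0.05 with edgeR, 1018 at unadjusted p under 0.05). DESeq2 at thresholds of 20 called 231 higher and 1135 lower. Higher genes were *Tgfb2*, *Syt15*, *Col18a1*, the source of endostatin, *Sat1*, *Alox12*, *Igfbp4*, *Vim* and *Dll4*, with log2 differences from 1.12 to 2.01. *Tgfb2*, a TGF-beta ligand, was at 181, 167 and 127 in BTBRLean and 305, 207 and 249 in BTBRob/ob in terminal and 28.3 to 89 in other *Gja5* cells, a log2 difference of 2.01 ± 0.32 (SE, edgeR, adjusted p = 0.0451). *Vim* was at 470.3 to 742 and 256 to 388 in the same populations, and it was the only 1 of the 8 to keep its call whichever group was left out. Lower genes were *Lipe*, hormone-sensitive lipase, *Enpep*, an aminopeptidase that acts on angiotensin, *Aplnr*, *Vwa1*, *Igfbp5*, *Rsad2*, *Rgcc* and *Gpr89*, from -4.95 to -2.93. *Gpr89* was at 143 over other *Gja5* cells against 18.1 over all other cells and 19 over terminal cells. Its gene model (chr3:96868281-96905346, minus strand) overlaps that of the gate gene *Gja5* on the opposite strand, so without a stated strand setting reads of the 2 genes cannot be told apart there. How far this touches the choice of other *Gja5* cells was not tested. *Alox12* and *Gpr89* lost the call in this comparison with cells holding both glomerular genes left out of both populations (edgeR, adjusted p = 0.113 and 0.0586).

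The gate rests on *Gad1* and *Slc45a4*, so genes of polyamine and GABA metabolism were examined. *Sat1*, which acetylates spermidine and spermine for breakdown and export, was at 579, 764 and 816 in BTBRLean and 625, 541 and 867 in BTBRob/ob in terminal, 289 to 496 in arterial and 73.6 to 169.7 in glomerular cells. Terminal groups lay above all arterial and glomerular groups, with a log2 difference of 0.70 ± 0.13 (SE, edgeR, adjusted p = 0.0439) against arterial, a log2 difference of 2.44 ± 0.14 (SE, edgeR, adjusted p = 4.31e-05) against glomerular and a log2 difference of 1.97 ± 0.12 (SE, edgeR, adjusted p = 3.05e-05) against other cells. The call against arterial cells was lost in every fit that left out a group. *Oaz2*, an antizyme that directs ornithine decarboxylase to degradation, was at 429.8 to 719, 181 to 389 and 208 to 346 in the same 3 populations, a log2 difference of 0.96 ± 0.14 (SE, edgeR, adjusted p = 0.0181) against arterial and a log2 difference of 1.06 ± 0.11 (SE, edgeR, adjusted p = 0.000946) against glomerular cells, with the former lost without BTBRLean at 11 weeks or BTBRob/ob at 6 weeks. *Azin1*, an inhibitor of antizymes, was lower than in arterial cells, at 67.9 to 146 against 231 to 543, a log2 difference of -1.70 ± 0.24 (SE, edgeR, adjusted p = 0.0121), and against glomerular cells it had a log2 difference of 0.74 ± 0.25 (SE, edgeR, adjusted p = 0.178). The calls for *Sat1*, *Oaz2* and *Azin1* against arterial cells were lost without the 21 cells (edgeR, adjusted p = 0.0526, 0.0518 and 0.105). Over the list, 2 of 14 tested genes were higher and 1 lower against arterial cells (median 0.14, all genes 0.11), beside 0.421% and 0.273% over all genes. Against other cells 2 of 18 were higher and 1 lower, beside 0.995% and 6.48% over all genes, so the number lower is near that share. *Odc1*, *Srm* and *Sms*, which make putrescine, spermidine and spermine, were at 9.92, 10.5 and 15.6 over all terminal cells and did not pass in any of the 4 comparisons.

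Other GABA genes had few counts. *Gad2*, the second GABA-making enzyme, had 10 counts over all terminal cells, and *Abat* and *Aldh5a1*, which break GABA down, had 7 and 3. Of 9 tested genes of the list, 0 were higher and 3 (*Abat*, *Aldh5a1* and *Gabre*) lower than in other cells, beside 6.48% lower over all genes. All 3 calls were lost with thinned cells, and leaving out a group ended that of *Abat* without any group but BTBRLean at 11 weeks and that of *Aldh5a1* without BTBRLean at 20 weeks or BTBRob/ob at 6 or 20 weeks. The receptor subunit *Gabbr1* was at 13.8 in terminal and 8.21 in other cells. Of the gap junction genes other than *Gja5*, 0 of 4 tested differed from arterial cells, and *Gja4* alone was higher than in other cells, with *Gja1*, connexin 43, at 1.13 to 139 in terminal and 56.3 to 107 in other cells.

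Beside 0.421% higher and 0.273% lower over all genes, of 24 genes of vascular tone tested against arterial cells *Alox12* was higher and 2 were lower. These were *Slco2a1*, a prostaglandin transporter, at 469 to 947 in terminal and 849.6 to 1807 in arterial cells (log2 difference -0.95 ± 0.15 SE, edgeR adjusted p = 0.0194), and *Atp2a3*, a calcium pump of the endoplasmic reticulum, at 410.2 to 825 and 889 to 1568 (log2 difference -1.23 ± 0.17 SE, edgeR adjusted p = 0.0112). Both were above other cells, by 2.45 and 1.92. *Edn1*, endothelin 1, was at 28.5 to 420.4 in terminal, 88.7 to 308 in arterial and 5 to 51.2 in glomerular cells, a log2 difference of 3.55 ± 0.66 (SE, edgeR, adjusted p = 0.0265) against glomerular cells. *Nos3*, endothelial nitric oxide synthase, was at 33.1 to 164 in terminal and 189 to 316 in arterial cells, a log2 difference of -1.85 ± 0.41 (SE, edgeR, adjusted p = 0.0963). Of the VEGF and angiopoietin pathway, *Kdr*, *Nrp1* and *Flt1* were higher and *Tek*, the angiopoietin receptor, lower than in arterial cells (15 tested, median 1.05, all genes 0.11). Of the BMP and TGF-beta pathway, the receptor genes *Tgfbr2* and *Eng* were higher by 1.92 and 0.51 and 0 of 20 lower. Shear-stress genes gave 0 calls of 11 against arterial cells, with *Klf2* at 108 to 247 in terminal and 158 to 371 in arterial cells, and immediate early genes gave 0 of 19, numbers near those the share over all genes (0.421% higher and 0.273% lower) would give. Without the 21 cells *Atp2a3*, *Flt1*, *Tek*, *Tgfbr2* and *Eng* lost the call against arterial cells (edgeR, adjusted p = 0.0548, 0.0603, 0.0943, 0.0528 and 0.0518).

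Within the gate, cells with *Slc45a4* alone, with both genes and with *Gad1* alone were set side by side without a test, since the gate made them and the genes given here were chosen after their values were seen. *Vwf* was at 224 in cells with *Slc45a4* alone, 25.4 in cells with both and 8.47 in cells with *Gad1* alone, and it was higher with *Slc45a4* alone than with *Gad1* alone in 5 of the 5 groups with at least 3 cells of each kind. *Fbln2* (542, 122 and 310.3), *Bmx*, a kinase of arterial endothelium (76, 4.36 and 31.8), and *Mical2* (41.8, 24 and 4.61) were also higher with *Slc45a4* alone in 5 of 5 groups. *Gja4*, at 806, 801 and 812 in the same order, had levels close together. *Alox12*, *Tmem26* and *Sat1* were highest in cells with both genes, at 765, 327 and 920.5. Of the 21 cells with both glomerular genes, 15 had *Slc45a4* alone. In these 21, *Fbln2*, *Vwf* and *Cldn5* were at 4.33, 1.37 and 9.68, while *Gja4* was at 655 and *Dll4* at 648.

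**Figure D4:**
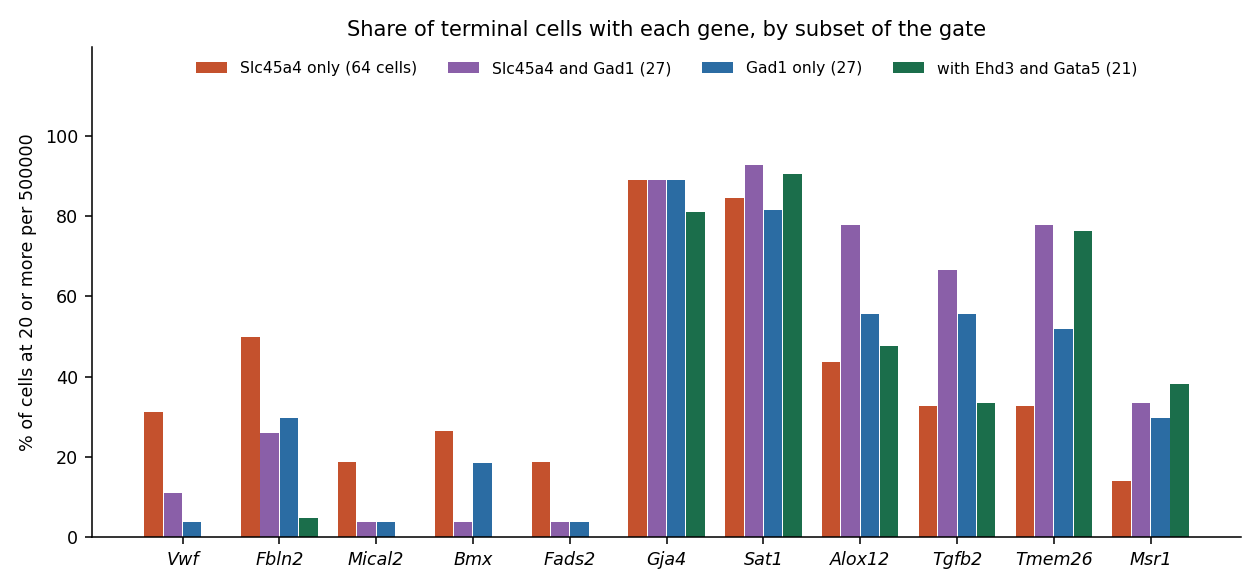
Percent of cells at a level of 20 or more for 11 genes, in terminal cells with *Slc45a4* alone, with *Slc45a4* and *Gad1*, with *Gad1* alone and, crossing these, with both glomerular genes. *Vwf* was reached in 31.2% of cells with *Slc45a4* alone and 3.7% of those with *Gad1* alone, while *Gja4* was reached in 80.95 to 89.1% of the cells of every subset.

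The subsets bear on the comparison with other cells. With *Gad1* required, *Vwf*, *Col8a1*, *Fads2*, *Mical2* and *Adh7* had log2 differences from other cells of -1.28, -2.73, -3.75, -0.71 and -0.37 in place of positive ones, none of them past the test (edgeR, adjusted p from 0.275 to 0.948). In this fit the cells with *Slc45a4* alone counted among the other cells. Not all cells with *Gad1* lacked these genes. Summed over groups, *Col8a1* and *Adh7* were at 46.7 and 34.1 with *Gad1* alone and at 0.05 each with both genes. *Vwf*, *Fads2* and *Mical2* were at 8.47, 3.8 and 4.61 with *Gad1* alone and at 25.4, 5.96 and 24 with both.

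The 20 nearest neighbours of each cell were found in 30 components of 2000 variable genes, with the 7 gate genes, *Ehd3* and *Gata5* left out. Of the neighbours of terminal cells, 21.5% were terminal cells, which were 2.16% of all cells, 12.9% were arterial, 22.7% glomerular and 25.7% other *Gja5* cells. Arterial cells had 57.1% arterial and 0.28% glomerular neighbours, and glomerular cells had 58.4% glomerular and 0.0803% arterial. Only 8 of the 118 had 10 or more terminal neighbours and 13 had none. The share of terminal neighbours ran from 18.1 to 24.1% over the 6 groups, and 15.6% of neighbours came from the same plate. Among the 21 cells with both glomerular genes, 49.5% of neighbours were glomerular and 0% arterial, against 16.9 and 15.7% for the other 97. Neighbours of cells with *Slc45a4* alone were arterial in 18.6%, those of cells with *Gad1* alone in 9.07% and those of cells with both in 3.15%.

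**Figure D5:**
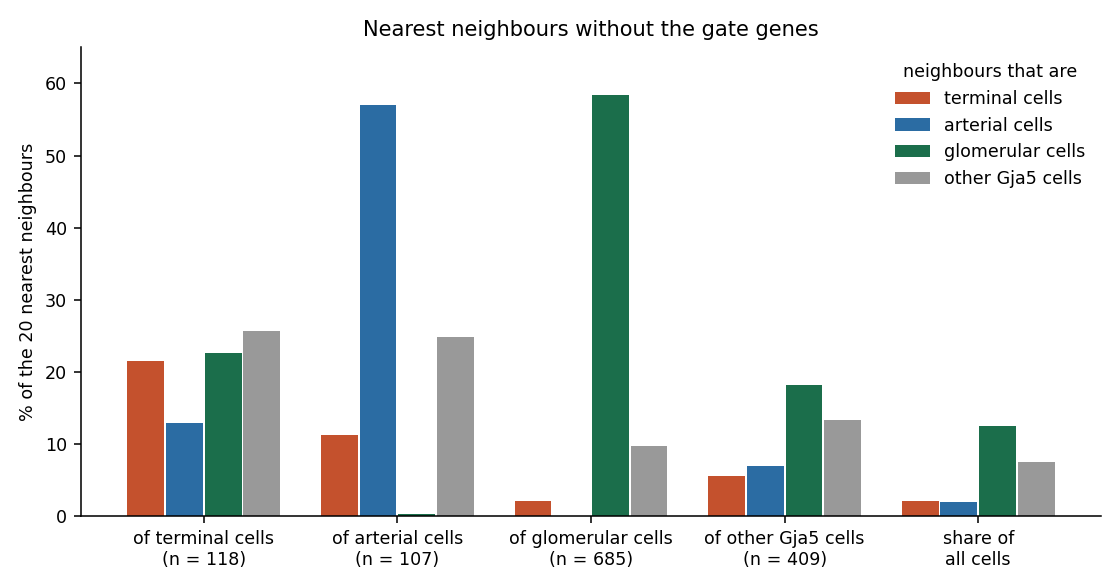
Percent of the 20 nearest neighbours that were terminal, arterial, glomerular or other *Gja5* cells (glomerular and other *Gja5* cells overlap), for 4 populations and, at the right, as shares of all 5464 cells. Terminal cells had 21.5% terminal, 12.9% arterial and 22.7% glomerular neighbours, while arterial and glomerular cells each had over 57% of their own kind.

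Terminal cells made up 1.98, 2.11 and 2.21% of BTBRLean cells at 6, 11 and 20 weeks (21, 29 and 13 cells) and 3.56, 1.27 and 2.22% of BTBRob/ob cells (24, 11 and 20 cells). The exact 95% intervals reached from 1.23 to 3.02% and from 2.29 to 5.24% at 6 weeks, and the intervals of the genotypes overlapped at every age. The mean difference of BTBRob/ob from BTBRLean was 0.25 percentage points with an SD of 1.22 over 3 ages (exact paired permutation test, two-sided, p = 0.75, where 0.25 is the smallest p that 3 pairs allow). It was negative without the 6-week samples (-0.42). Shares of single plates ran from 0% to 6.45%, a wider range than that between groups. A sort on live CD31-positive cells sets which cells can be counted.

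No gene passed the test between genotypes within terminal cells (edgeR with age as a covariate, 0 of 11973, 338 at unadjusted p under 0.05, and 214 higher and 203 lower in BTBRob/ob with DESeq2). On simulated counts with 200 genes changed 4-fold in this comparison, 131 were found, with 9 wrong calls. These counts gave every gene the same dispersion (spread beyond counting error) and changed only genes of higher count. The chance of finding a change in the real sums was therefore not measured. Among the genes named against arterial cells, 22 were tested, with log2 differences of BTBRob/ob from BTBRLean from -0.88 to 2.69 and a median of -0.07. The lowest unadjusted p was that of *Eln*, which was higher in BTBRob/ob at all 3 ages by a log2 difference of 1.22 (edgeR, p = 0.029, adjusted p = 1). In a test added after the data were seen, the difference between terminal and arterial cells was compared between genotypes, and 0 of 13538 genes passed (edgeR interaction test, 324 at unadjusted p under 0.05).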

How the data were processed

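Single cells from mouse kidney were sequenced with SmartSeq2. The deposited values are raw read counts per gene and cell. To make them, the authors trimmed 50-base single reads with trim galore, aligned them to GRCm38 with TopHat2 2.1.1, removed duplicates with Samtools 0.1.18 and counted genes with featureCounts (Subread 1.4.6-p5). Removing duplicates caps the counts of short, abundant genes, and the highest count of a gene in a cell was 4647. Cells with fewer than 50000 counts and epithelial cells had been removed by the authors. The strand setting and annotation release are not given in the sources used here. The strain is that of the paper, since the labels name another.

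The members and lists were chosen with earlier results of these data known. Counts were summed per genotype, age and population (at least 5 cells) and tested with edgeR 4.0.16 (R 4.3.3), using TMM, its default filter on low counts, the quasi-likelihood test and the genotype and age as a block, with Benjamini-Hochberg adjustment at 0.05 over all genes. The block pairs populations taken from the same sample. Gate genes stayed in the totals and out of the tests. Named genes were those of largest fold among genes that passed, had the same sign in all 6 groups and reached a level of 20 in the higher population, 12 in each direction against arterial cells, 12 and 6 against other cells and 8 in each direction against the others. Gene lists are described by counts and medians, with no test. On simulated counts with 200 genes changed 4-fold, 197 of 200 were found against arterial cells (13969 genes) and 182 against other cells (22518 genes). Wrong calls numbered 2 and 7. The simulation used the same dispersion for every gene and changed only genes of higher count, so it does not measure how many real changes were missed. Alternatives were DESeq2 1.42.0, RLE size factors, no filter, other gates, thinned cells, plate sums and leaving out each group, with the fit without cells holding both glomerular genes and the interaction of genotype and population added after the data were seen. No doublet caller was run. The authors sorted 1 cell per well after gating out doublets by light scatter, and whether doublets remained was not tested. Binomial intervals cover counting error only.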

Additional observations from a re-analysis of the deposited data

How the results depend on the processing

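Numbers of genes called depended on the processing more than the directions of named genes did. Against arterial cells (57 higher and 37 lower as reported), DESeq2 called 577 and 472, no filter 95 and 85, and the fit with no replicate block, which ignores that both populations of a group share a sample, 98 and 64. Arterial cells with all 3 genes gave 22 and 16, the gate on *Gad1* 34 higher, plate sums 73 lower and thinned cells 61 lower. The fit without cells holding both glomerular genes, an alternative chosen after the data were seen, gave 26 and 16. Leaving out a group gave 19 to 40 higher and 9 to 35 lower. Against other cells (215 and 1400), DESeq2 called 647 and 3975, the gate on *Gad1* 115 and 3161, thinned cells 116 and 290, plate sums 10266 lower and no replicate block 332 higher, and leaving out a group gave 133 to 208 higher and 510 to 897 lower. Against glomerular cells (138 and 194), DESeq2 called 586 and 1913, and leaving out a group gave 98 to 165 higher and 56 to 129 lower. Against other *Gja5* cells (18 and 13), DESeq2 called 231 and 1135, no filter 20 lower, gate thresholds of 10 called 41 and 42 and those of 40 called 0 and 0, and leaving out a group gave 2 to 8 higher and 6 to 8 lower. Between genotypes DESeq2 called 214 and 203 where edgeR called 0.

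With RLE size factors in place of TMM the median of all genes moved from -0.96 to -0.83 against other cells and from -0.53 to -0.42 against glomerular cells. The share difference between genotypes ran from -0.42 without 6 weeks to 0.79 without 11 weeks, and was -1.01 percentage points as a share of *Gja5* cells. With *Gad1* required, *Adh7* (-0.37), *Col8a1* (-2.73), *Fads2* (-3.75), *Mical2* (-0.71) and *Vwf* (-1.28) reversed against other cells, without passing the test. Cells with *Slc45a4* alone counted among the other cells in that fit. The cause of these changes was not tested. Genes under a level of 20 rest on few counts.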

Other observations

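*Fabp4*, a fatty acid binding protein of capillary endothelium, was at 175 to 452 in terminal and 19.8 to 161 in arterial cells, a log2 difference of 2.64 ± 0.42 (SE, edgeR, adjusted p = 0.0243). *Gpihbp1*, which carries lipoprotein lipase across capillary endothelium, was at 65.9 to 256 and 4.1 to 45.8, a log2 difference of 3.83 ± 0.68 (SE, edgeR, adjusted p = 0.0357). They were the 2 of 11 tested genes of fatty acid and lipid handling that were higher than in arterial cells, and 0 were lower, beside 0.421% and 0.273% over all genes. *Cx3cl1*, a membrane-bound chemokine, was at 504 to 1125 in terminal and 209 to 457 in arterial cells, a log2 difference of 1.18 ± 0.21 (SE, edgeR, adjusted p = 0.0361), and it was also higher than in other cells, by a log2 difference of 1.60. It was the 1 of 17 tested genes of chemokines, adhesion and antigen presentation to pass against arterial cells. Without the 21 terminal cells that held both glomerular genes the calls for *Fabp4*, *Gpihbp1* and *Cx3cl1* against arterial cells were lost (edgeR, adjusted p = 0.0518, 0.0526 and 0.116). *Robo4*, an endothelial receptor, was higher than in arterial cells by 3.90 and *Cav1*, caveolin 1, lower by a log2 difference of -0.69. Few members of the lists of cycling, lymphatic, podocyte, tubule, immune and red cell genes could be tested against arterial cells (2, 1, 4, 8, 1 and 1), and 0 passed. *Robo4* is in none of the lists and was picked after its values were seen.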
